A study of Mus musculus with 6 samples.

Results

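Cytochrome P450 genes of families 1, 2 and 3 were taken from RNA sequencing of mouse liver, by a rule on gene symbols alone: the symbol had to read Cyp, a family digit from 1 to 3, a subfamily letter and a gene number. The rule found 61 genes among the 55802 symbols listed. Reads were counted for 53 of them in at least 1 library, and 51 passed the filter on low counts. The livers came from male C57BL/6 mice reared for 71 weeks, with no altered allele named in the labels. The control group (3 libraries) ate normal chow, and the PS-MP group (3 libraries) ate chow that contained polystyrene microplastic. Diet is the one difference between the groups that the labels state, and the series asks what prolonged exposure does to gene expression in liver. The sources used here give neither particle size nor dose.

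Cytochrome P450 enzymes are haem proteins of the endoplasmic reticulum that put an oxygen atom into small molecules, with electrons passed on by the reductase Por. Families 1 to 3 handle most drugs, plant compounds and pollutants in liver, as well as steroids and fatty acids. Foreign compounds switch on many of these genes through receptors: AHR acts on family 1, CAR on subfamilies 2b and 2c, and PXR on subfamily 3a. Others are set by sex, by the position of the hepatocyte between portal and central vein, or by the time of day.

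With PS-MP chow no member passed the test, and the members of smallest p were Cyp2u1 and Cyp3a25, both at lower levels in PS-MP. edgeR's quasi-likelihood test called 0 of the 51 tested members (adjusted over all genes), where it called 0.0113% of the 17662 genes tested. At an unadjusted p under 0.05 it had 6 members (11.8%), against 5.38% of all genes, and the log2 fold change of each of the 6 (Cyp2a22, Cyp2c55, Cyp2u1, Cyp3a25, Cyp3a41a and Cyp3a59) was below zero. Of the 6, 3 are Cyp3a genes, and Cyp3a25 and Cyp3a59 are near copies. Near copies may share reads, so shares of members given here do not count independent genes. DESeq2 called 2 members, Cyp2u1 and Cyp3a25, both lower, where it called 1.06% of all genes. Limma-voom called 0, with 5 members at an unadjusted p under 0.05. The labels do not say that the replicates are separate animals, so these p-values measure the spread between the samples, and in a piece of liver fewer cells of a type cannot be told apart from less RNA per cell.

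The libraries held 68357478 to 112566641 counts, and genes of families 1 to 3 took 1.68% to 2.44% of them. Control replicate 2 stood apart, with 11.2% of its counts from 18S ribosomal RNA (Rn18s-rs5) where the others had 0.387% to 2.92%. It had the lowest share of member counts, with 1.68% against 1.90% or more in each other library. Levels are given as CPM, the counts of a gene per 1e6 counts of the library after the TMM scaling of edgeR, and scaling by library size alone moved the median log2 fold change of all genes up by 0.21. Markers of hepatocytes, the main cells of the labelled tissue, were abundant: the 7 of 8 listed that are in the files had counts in every library, with summed levels of 59856 to 73057 CPM on control chow, and 63628 to 84325 CPM with PS-MP. Among genes of other organs, Prss2, Cpa1 and Pnlip of pancreas, Slc12a1, Kap and Slc22a6 of kidney, Scgb1a1, Sftpc and Sftpb of lung and Lct of intestine were at 0 counts. Others had counts in every library: Fabp2 of intestine (32.2 to 95.7 CPM), Cela1 of pancreas (5.95 to 13.3 CPM) and Sftpa1 of lung (0.312 to 0.923 CPM). Umod of kidney had 1.94 CPM in PS-MP replicate 2 and no counts elsewhere. Kupffer cell markers (8 of 8 measured) summed to 99.4 to 126 CPM on control chow, and 145 to 168 CPM with PS-MP, higher in each PS-MP library (two-sided exact permutation p = 0.1), and their part in the results on P450 genes was not tested.

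Of the 51 tested members, 34 (66.7%) had a log2 fold change below zero, against 47.2% of all genes. Their median was -0.22 against 0.02 for all genes. Scaled by library size alone, which moves all genes up, 26 of 51 members were below zero against 19.8% of all genes, and the median was -0.0026 against 0.23 for all genes. The median of the members thus lay 0.24 below that of all genes with TMM and 0.23 below it by library size alone, while their direction against zero depends on the scaling. With single libraries left out, the number of members with an unadjusted p under 0.05 went from 3 (without PS-MP replicate 1) to 10 (without control replicate 2), and the median from -0.15 (without control replicate 3) to -0.31 (without control replicate 2). PS-MP libraries lay below each control library for 8 members (15.7%, against 4.99% of all genes): Cyp2a12, Cyp2a22, Cyp2c50, Cyp2c55, Cyp2u1, Cyp3a11, Cyp3a25 and Cyp3a41a. Among the 8, Cyp2a12 and Cyp2a22 are near copies, as are Cyp3a11 and Cyp3a41a. PS-MP libraries lay above for 1 member, Cyp2t4 (1.96%, against 6.24% of all genes), which had 64 counts over all libraries. Scaled by library size alone, only Cyp2u1 and Cyp3a25 of these members stayed below (1.53% of all genes), and Cyp2c68, Cyp2t4 and Cyp3a13 lay above (17.5% of all genes). The 95% interval stayed inside a 2-fold change for 23 members (45.1%), against 53.6% of all genes, so for most members such a change was not excluded at this spread.

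**Figure D1:**
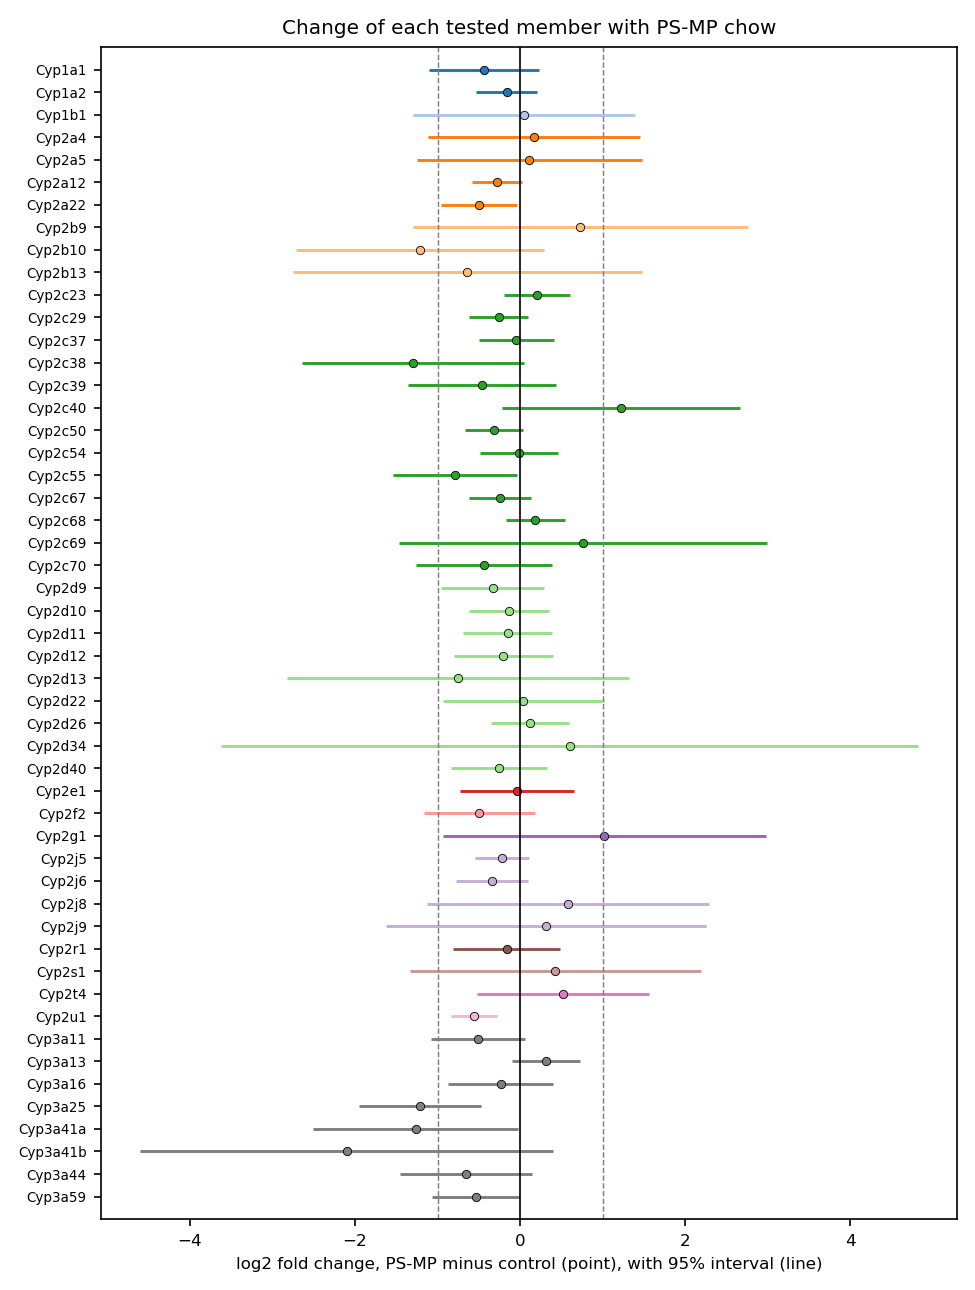
Log2 fold change (PS-MP minus control) of each of the 51 tested members, with its 95% interval as a line and colour by subfamily. Dashed lines mark a 2-fold change; 34 points lie left of zero, and the intervals of 6 members lie wholly below it.

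Summed over all members, the level was 24562, 18845 and 24682 CPM on control chow, and 18259, 21898 and 19879 CPM with PS-MP. The groups overlapped, since control replicate 2 was nearly as low as the lowest PS-MP library. The log2 fold change of the sum was -0.18 (SE 0.19, 95% interval -0.64 to 0.28; edgeR adjusted p = 1), and it was 0.03 when scaled by library size alone. Cyp2e1 alone held 24.9% to 41.4% of the member counts in control and 36.0% to 36.9% in PS-MP. Without Cyp2e1 the sum was 14404, 14158 and 16988 CPM on control chow, and 11531, 13840 and 12729 CPM with PS-MP. Each PS-MP library lay below each control library (two-sided exact permutation p = 0.1, the smallest that 3 against 3 can give). The margin was narrow, with PS-MP replicate 2 just under control replicate 2, and by library size alone these groups overlapped. Without Cyp3a11 as well, the groups overlapped with TMM too (exact permutation p = 0.4).

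**Figure D2:**
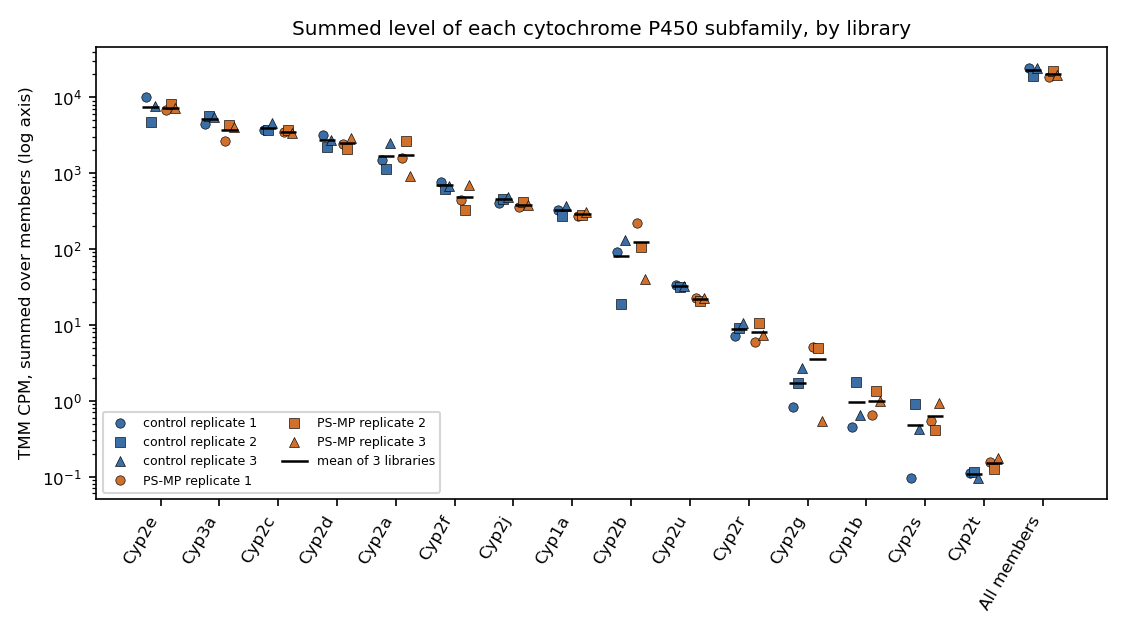
TMM CPM summed over the members of each subfamily, on a log axis, with 1 point per library and a bar at the mean of 3 libraries. The Cyp3a, Cyp2c and Cyp2u points of PS-MP lie below those of control, while Cyp2b and Cyp2a spread widely within each diet.

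Per kilobase of transcript (GENCODE M21), Cyp2e1 was the most abundant member, with 4099 CPM per kb in control and 3989 in PS-MP. Cyp3a11 followed with 2051 and 1439 CPM per kb. Cyp2c29 had 855 and 713, Cyp2d9 had 753 and 600, and Cyp2a5 had 609 and 658 CPM per kb. A mean of at least 100 CPM in either diet was reached by 20 members, of which 14 had a log2 fold change below zero, against 47.2% of all genes. Of these 14, Cyp1a2, Cyp2c37, Cyp2c54, Cyp2d10 and Cyp2e1 lay above zero by library size alone. No count was found for Cyp2b19, Cyp2b23, Cyp2c66, Cyp2j7, Cyp2j11, Cyp2j12, Cyp2j13 and Cyp2w1, and Cyp2c65 and Cyp3a57 had too few counts to be tested.

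The family 1 genes, the classical targets of AHR, did not differ beyond their spread. Cyp1a2, the main family 1 enzyme of liver, which oxidises caffeine and aromatic amines, had 323, 269 and 372 CPM on control chow, and 270, 280 and 311 CPM with PS-MP. Control replicate 2 was the lowest library of all, and the groups overlapped. Its log2 fold change was -0.16 (95% interval -0.54 to 0.21; edgeR adjusted p = 1), and 0.04 by library size alone. Cyp1a1, which is strongly induced by AHR ligands and nearly silent without them, had 1.2, 1.0 and 0.945 CPM on control chow, and 0.777, 0.951 and 0.584 CPM with PS-MP (log2 fold change -0.44, 95% interval -1.11 to 0.22; adjusted p = 0.974). Cyp1b1, mainly a gene of tissues other than hepatocytes, ranged from 0.454 to 1.79 CPM in control and from 0.656 to 1.33 CPM in PS-MP. Its log2 fold change was 0.05 (SE 0.56). Among other AHR targets edgeR called 0 of 5 tested, with 3 below zero and a median of -0.11, or 0 below zero and a median of 0.10 by library size alone. They include Tiparp, a feedback inhibitor of AHR (log2 fold change -0.14), and Nqo1, a quinone reductase (-0.11). Ahr itself had 25.9, 35.0 and 27.5 CPM on control chow, and 20.6, 44.9 and 29.6 CPM with PS-MP.

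The Cyp2b genes spread more within each diet than between the diets. Cyp2b10, the gene that CAR activators induce most strongly, had 10.2, 3.19 and 7.5 CPM on control chow, and 3.0, 1.06 and 4.95 CPM with PS-MP. PS-MP replicate 2 was lowest, and control replicate 2 lay within the PS-MP range. Its log2 fold change was -1.21 (SE 0.63, 95% interval -2.72 to 0.29; edgeR adjusted p = 0.941). Cyp2b9, which is higher in females, was the most abundant member of the subfamily, with 79.0, 15.6 and 123.01 CPM on control chow, and 219, 106 and 34.8 CPM with PS-MP. The highest library was 14.1 times the lowest, and the groups overlapped (log2 fold change 0.73, SE 0.85, 95% interval -1.30 to 2.76). Cyp2b13, also female-biased, had 0.840, 0.197 and 2.43 CPM on control chow, and 1.34, 0.340 and 0.572 CPM with PS-MP. The sum of the subfamily was 18.9 to 133 CPM on control chow, and 40.3 to 224 CPM with PS-MP (exact permutation p = 0.6).

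The Cyp2c genes, many of which make epoxides of arachidonic acid and oxidise drugs, summed to 3678, 3719 and 4554 CPM on control chow, and 3514, 3673 and 3340 CPM with PS-MP. Each PS-MP library lay below each control library, by a narrow margin for PS-MP replicate 2 (exact permutation p = 0.1). The log2 fold change of the sum was -0.18 (SE 0.16, 95% interval -0.56 to 0.19; edgeR adjusted p = 1). It was 0.03 by library size alone, where the groups overlapped, and -0.07 without control replicate 3. Below zero were 9 of the 13 members tested, and 7 of 13 by library size alone.

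Cyp2c29, the most abundant of them per kilobase and a target of CAR, had 1538, 1347 and 1690 CPM on control chow, and 1179, 1369 and 1268 CPM with PS-MP. Control replicate 2 lay inside the PS-MP range and the other controls above it (log2 fold change -0.26, SE 0.15, 95% interval -0.62 to 0.09; edgeR adjusted p = 0.955). Cyp2c50, an epoxygenase of arachidonic acid, had 774, 835 and 1008 CPM on control chow, and 669, 728 and 701 CPM with PS-MP. Its PS-MP libraries were all below control (log2 fold change -0.32, SE 0.15, 95% interval -0.67 to 0.03; adjusted p = 0.923). Its coding sequence is 96.1% identical to that of Cyp2c37, and Cyp2c54 is 95.2% identical to it, so reads may move between the copies. Summed, these copies had 1444, 1577 and 1997 CPM on control chow, and 1553, 1529 and 1367 CPM with PS-MP, which overlap (exact permutation p = 0.4).

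Cyp2c55, which CAR and PXR activators induce, had 5.83, 7.39 and 7.67 CPM on control chow, and 2.67, 5.81 and 3.61 CPM with PS-MP. PS-MP replicate 2 lay just under control replicate 1 (log2 fold change -0.79, SE 0.31, 95% interval -1.54 to -0.03; edgeR adjusted p = 0.921). None of its 75-base coding stretches occurs in another member. Cyp2c38 had 48.8, 26.0 and 96.8 CPM on control chow, and 11.0, 30.4 and 28.6 CPM with PS-MP, so that control replicate 2 lay inside the PS-MP range (log2 fold change -1.29, SE 0.56; adjusted p = 0.923). Cyp2c70, which makes the muricholic acids of mouse bile, had 105, 105 and 77.4 CPM on control chow, and 50.3, 50.03 and 112 CPM with PS-MP, with PS-MP replicate 3 the highest library of all (log2 fold change -0.44, SE 0.34).

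On the other side of zero, Cyp2c40 had 14.3, 6.87 and 21.02 CPM on control chow, and 58.4, 26.8 and 13.5 CPM with PS-MP (log2 fold change 1.22, SE 0.60, 95% interval -0.22 to 2.67; edgeR adjusted p = 0.930). PS-MP replicate 1 carried most of that difference, and without it the value was 0.51. Only 38.8% of its 75-base coding stretches are unique among the members. Summed with its closest copies Cyp2c67, Cyp2c68 and Cyp2c69, its level was 406 ± 54.7 CPM on control chow, and 405 ± 43.7 CPM with PS-MP (SD, n = 3; exact permutation p = 1). Cyp2c68 alone had 110, 122 and 137 CPM on control chow, and 158, 141 and 120 CPM with PS-MP (log2 fold change 0.19), and Cyp2c67 had 219, 291 and 281 CPM on control chow, and 207, 247 and 214 CPM with PS-MP (log2 fold change -0.24). Cyp2c23, an epoxygenase, had 189, 223 and 234 CPM on control chow, and 279, 263 and 203 CPM with PS-MP (log2 fold change 0.20).

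**Figure D3:**
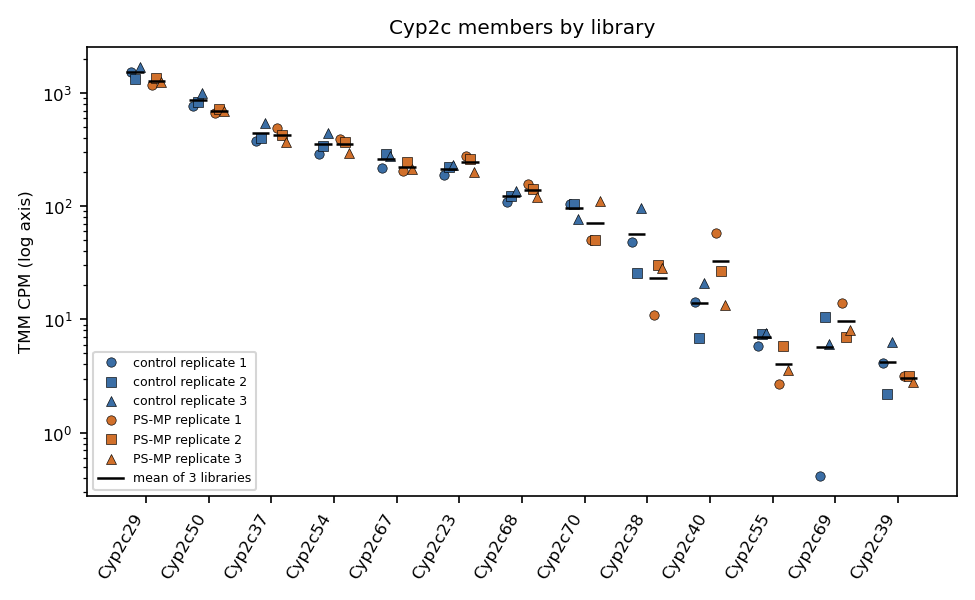
TMM CPM of the 13 tested Cyp2c members on a log axis, with 1 point per library and a bar at the mean of 3 libraries. Cyp2c50 and Cyp2c55 are the members whose PS-MP points all lie below control, and Cyp2c69 has the widest spread within control.

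The Cyp2a genes split into a variable pair and a steady pair. Cyp2a5, the coumarin hydroxylase of mouse liver, and Cyp2a4, a steroid hydroxylase that is higher in females, are near copies: their coding sequences differ at 23 of 1485 bases. A 75-base window of each coding sequence (bases 595 to 669 of GENCODE M21 transcripts) is shown, chosen because it holds the most differing bases. Even there only 5 bases, in capitals, assign a read to the one or the other.
Cyp2a4: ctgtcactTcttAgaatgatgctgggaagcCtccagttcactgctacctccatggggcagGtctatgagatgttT
Cyp2a5: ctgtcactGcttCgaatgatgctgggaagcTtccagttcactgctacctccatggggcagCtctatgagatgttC

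The longest stretch without a difference between them is 216 bases, and 76.8% of their 75-base coding stretches are unique among the members. Pseudogenes were not compared. Cyp2a5 had 1023, 707 and 1949 CPM on control chow, and 1202, 2234 and 538 CPM with PS-MP. Control replicate 3 and PS-MP replicate 2 were high, PS-MP replicate 3 was lowest, and the groups overlapped (log2 fold change 0.11, SE 0.57, 95% interval -1.25 to 1.48; edgeR adjusted p = 1). Cyp2a4 ranked the libraries in the same order, with 34.1, 16.5 and 45.9 CPM on control chow, and 37.9, 55.9 and 14.8 CPM with PS-MP.

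These libraries differed in genes of the circadian clock, which is known to drive Cyp2a5 in liver through the factors Dbp, Tef and Hlf. Dbp had 2.01, 2.23 and 44.3 CPM on control chow, and 35.7, 78.2 and 0.911 CPM with PS-MP. The 3 libraries high in Dbp, control replicate 3 and PS-MP replicates 1 and 2, were also the 3 highest for Cyp2a5, Cyp2a4 and Alas1. Alas1, the first enzyme of haem synthesis and a further clock output, had 285, 163 and 482 CPM on control chow, and 335, 599 and 183 CPM with PS-MP. Per3 had 0.578, 0.509 and 4.47 CPM on control chow, and 9.35, 11.2 and 0.934 CPM with PS-MP, and Arntl, whose RNA is known to peak when that of Dbp is low, was lowest in the same 3 libraries. Tef and Hlf did not follow Dbp. Tef had 44.0, 23.0 and 17.3 CPM on control chow, and 68.4, 41.0 and 22.1 CPM with PS-MP, lowest in control replicate 3. Hlf had 18.1, 6.77 and 13.5 CPM on control chow, and 20.9, 23.8 and 21.9 CPM with PS-MP. Of the 13 clock genes listed and tested, these 3 libraries were the highest for 6 (Cry2, Dbp, Nr1d1, Nr1d2, Per2 and Per3), the lowest for 3 (Arntl, Cry1 and Nfil3) and neither for 4 (Clock, Hlf, Per1 and Tef). The grouping of the libraries was read from Dbp itself, after its values were seen. Since Dbp falls into separate clusters, no correlation is given, and the part of sampling time in the Cyp2a levels was not tested. edgeR called 0 of the 13, with 3 below zero and a median of 0.46, or 2 and 0.69 by library size alone.

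**Figure D4:**
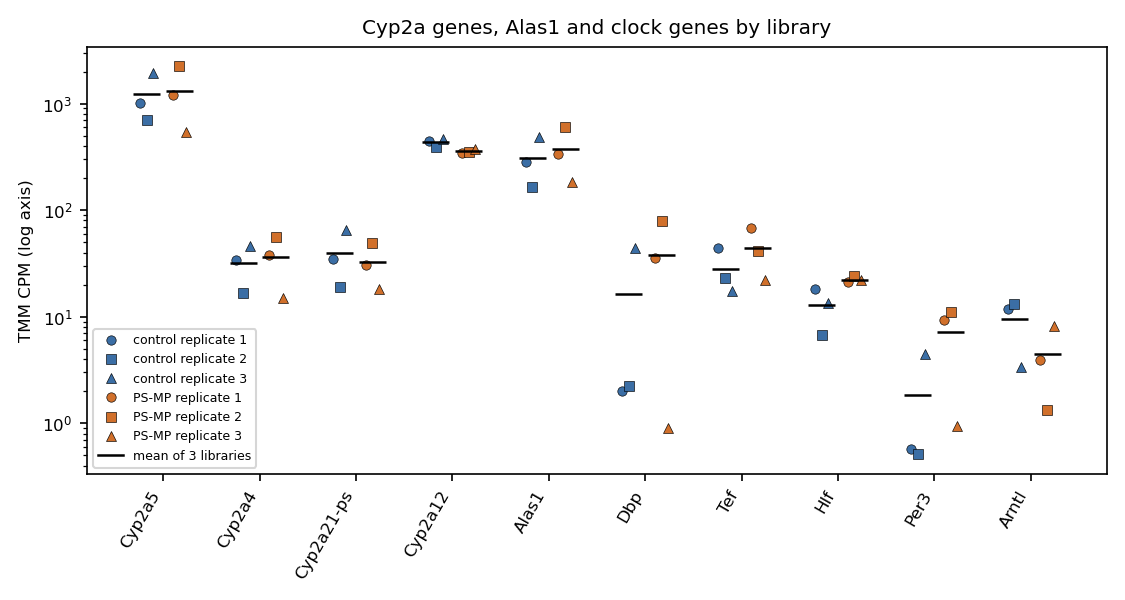
TMM CPM of Cyp2a genes, the pseudogene Cyp2a21-ps, Alas1 and 5 clock genes, on a log axis, with 1 point per library and a bar at the mean of 3 libraries. Control replicate 3 and PS-MP replicates 1 and 2 lie high for Cyp2a5, Alas1, Dbp and Per3 and low for Arntl, which Tef and Hlf do not follow, while Cyp2a12 varies little.

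Cyp2a12, an enzyme of steroids and bile acids, belonged to the steady pair, with 445, 390 and 465 CPM on control chow, and 340, 354 and 374 CPM with PS-MP. Each PS-MP library lay below each control library (log2 fold change -0.28, SE 0.13, 95% interval -0.59 to 0.02; edgeR adjusted p = 0.923; exact permutation p = 0.1). Its near copy Cyp2a22 (97.0% identity of coding sequence) had 5.34, 4.39 and 6.03 CPM on control chow, and 3.79, 3.78 and 3.60 CPM with PS-MP, again without overlap (log2 fold change -0.50, SE 0.19, 95% interval -0.96 to -0.03; adjusted p = 0.918). Summed, the pair had 438 ± 39.6 CPM on control chow, and 360 ± 16.8 CPM with PS-MP (SD, n = 3), a ratio of 0.821. By library size alone the groups overlapped for both genes, and the log2 fold change of Cyp2a12 was -0.07. The promoters of the pair, taken from RefSeq (GRCm38.p6) as the 150 bases before the gene start, are shown because the levels of both genes were lower in PS-MP and their starts are alike, with 84.2% identity over the full 300-base windows. The capitals mark the letters CAAAGNCCA, searched on both strands, which belong to the consensus bound by the liver factor HNF4A. The stretches are chr7:27028940-27029089, plus strand for Cyp2a12 and chr7:26939387-26939536, minus strand for Cyp2a22.
Cyp2a12: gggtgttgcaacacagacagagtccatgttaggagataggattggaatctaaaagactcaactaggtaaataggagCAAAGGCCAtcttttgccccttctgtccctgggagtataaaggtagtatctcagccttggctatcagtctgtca
Cyp2a22: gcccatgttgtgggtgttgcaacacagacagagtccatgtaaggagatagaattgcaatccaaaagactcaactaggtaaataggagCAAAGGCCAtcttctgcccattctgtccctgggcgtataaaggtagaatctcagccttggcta

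Of the 55 RefSeq promoter windows of members, 12 (21.8%) held these letters, against 1.98% of all 32851 windows. Besides this pair they were Cyp2c40, Cyp2c65, Cyp2c67, Cyp2c68, Cyp2c69, Cyp2c70, Cyp3a11, Cyp3a16, Cyp3a41a and Cyp3a41b, many of them near copies of each other. The letters GCGTG, the core bound by AHR, were in 10 of 55 member windows (18.2%) and in 32.4% of all windows, Cyp1a1 and Cyp1b1 among the members. TTANGTAA, bound by Dbp and its kin, was found in 1 member window (1.82%), that of Cyp2c38, against 2.32% of all. TTCNNNGAA, bound by STAT5, was in 2 of 55 (3.64%), against 8.30% of all. A match is a description of letters, and these windows of 300 bases do not cover enhancers farther away. Cyp2c23, Cyp2c54, Cyp2d12, Cyp2d13, Cyp2d22, Cyp2d34, Cyp2g1, Cyp2j7 and Cyp2u1 had no entry. Hnf4a itself had 375, 320 and 288 CPM on control chow, and 302, 297 and 363 CPM with PS-MP (log2 fold change -0.03, and 0.18 by library size alone).

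The Cyp3a subfamily, whose chief liver enzyme Cyp3a11 resembles human CYP3A4, summed to 4413, 5667 and 5497 CPM on control chow, and 2686, 4273 and 4060 CPM with PS-MP. Each PS-MP library lay below each control library, and PS-MP replicate 1 was far the lowest. The log2 fold change of the sum was -0.50 (SE 0.23, 95% interval -1.04 to 0.04; edgeR adjusted p = 0.926; exact permutation p = 0.1). By library size alone it was -0.28 and the groups overlapped, and without PS-MP replicate 1 it was -0.32. Below zero were 7 of the 8 members tested, by library size alone too. The share of member counts that Cyp3a took was 18.0%, 30.1% and 22.3% on control chow, against 14.7%, 19.5% and 20.4% with PS-MP. These shares overlapped, with control replicate 1 below PS-MP replicates 2 and 3 (exact permutation p = 0.3).

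Cyp3a11, the main target of PXR, made up most of that sum, with 4043, 5277 and 5102 CPM on control chow, and 2380, 3936 and 3801 CPM with PS-MP. The highest PS-MP library lay just under the lowest control library (log2 fold change -0.51, SE 0.24, 95% interval -1.09 to 0.06; edgeR adjusted p = 0.923). Without PS-MP replicate 1 its log2 fold change was -0.31, and with library size alone its groups overlapped. The other Cyp3a members summed to 370, 389 and 395 CPM on control chow, and 307, 336 and 259 CPM with PS-MP, again without overlap (exact permutation p = 0.1). By library size alone the groups overlapped for this sum as well.

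Cyp3a25, a steroid hydroxylase of liver and gut, had the largest log2 difference among the 20 members with a mean of at least 100 CPM in either diet. It had 136, 188 and 159 CPM on control chow, and 45.3, 102 and 61.5 CPM with PS-MP. Each PS-MP library lay below each control library, by library size alone too (log2 fold change -1.21, SE 0.31, 95% interval -1.95 to -0.47; edgeR adjusted p = 0.767). DESeq2 called it (log2 fold change -1.22, adjusted p = 0.0388), and limma-voom did not (adjusted p = 0.810). Over all alternatives run, its log2 fold change stayed between -1.59 and -0.98. Its near copy Cyp3a59 had 47.5, 52.0 and 70.9 CPM on control chow, and 34.0, 49.3 and 34.2 CPM with PS-MP, where PS-MP replicate 2 lay within the control range (log2 fold change -0.54, SE 0.22; adjusted p = 0.923). Summed, the pair had 218 ± 30.4 CPM on control chow, and 109 ± 37.8 CPM with PS-MP (SD, n = 3), a ratio of 0.500, without overlap (exact permutation p = 0.1).

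The pair differs at 38 of 1512 coding bases, with 162 bases as the longest stretch in common, so the sum is less exposed than either gene to how reads were split between them. Bases 275 to 349 of the coding sequences, a window again chosen for the most differing bases, show 7 of the differences in capitals.
Cyp3a25: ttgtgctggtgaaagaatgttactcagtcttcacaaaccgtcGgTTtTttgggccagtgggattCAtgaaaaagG
Cyp3a59: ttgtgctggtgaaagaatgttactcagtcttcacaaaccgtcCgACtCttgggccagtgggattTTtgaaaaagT

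Their RefSeq promoters (GRCm38.p6) are 95.7% identical, while that of Cyp3a25 and that of Cyp3a11 are 51.5% identical. The 150 bases before the start are shown for the member with the largest difference, for its copy, for the abundant Cyp3a11 and for Cyp3a13, the member that lay on the other side of zero. They are chr5:146009619-146009768, minus strand for Cyp3a25, chr5:146079108-146079257, plus strand for Cyp3a59, chr5:145879855-145880004, minus strand for Cyp3a11 and chr5:137921620-137921769, minus strand for Cyp3a13. Capitals again mark CAAAGNCCA, which among these is in Cyp3a11 alone.
Cyp3a25: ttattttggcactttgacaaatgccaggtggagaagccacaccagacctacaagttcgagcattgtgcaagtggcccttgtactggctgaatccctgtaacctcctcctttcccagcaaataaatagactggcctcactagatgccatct
Cyp3a59: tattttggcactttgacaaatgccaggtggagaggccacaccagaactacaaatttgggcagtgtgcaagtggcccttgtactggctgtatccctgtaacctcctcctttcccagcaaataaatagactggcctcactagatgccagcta
Cyp3a11: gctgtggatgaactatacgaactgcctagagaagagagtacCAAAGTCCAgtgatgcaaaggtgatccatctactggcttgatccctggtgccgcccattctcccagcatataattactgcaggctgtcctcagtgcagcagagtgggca
Cyp3a13: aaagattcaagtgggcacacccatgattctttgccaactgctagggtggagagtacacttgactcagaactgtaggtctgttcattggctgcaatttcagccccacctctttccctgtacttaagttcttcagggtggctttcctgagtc

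Cyp3a13, which is expressed in gut as well as liver, had 150, 126 and 147 CPM on control chow, and 214, 164 and 148 CPM with PS-MP. PS-MP replicate 3 lay within the control range (log2 fold change 0.31, SE 0.17, 95% interval -0.10 to 0.72; edgeR adjusted p = 0.955), and without PS-MP replicate 1 the value was 0.15. None of its 75-base stretches occurs in another member. The female-biased members were low. Cyp3a44 had 25.9, 18.0 and 11.7 CPM on control chow, and 10.2, 15.5 and 9.52 CPM with PS-MP, and Cyp3a16, best known from fetal liver, had 4.72, 4.01 and 5.16 CPM on control chow, and 2.96, 3.57 and 5.27 CPM with PS-MP. Both overlapped.

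Cyp3a41a had 2.19, 0.608 and 0.803 CPM on control chow, and 0.413, 0.521 and 0.561 CPM with PS-MP, without overlap (log2 fold change -1.27, SE 0.52, 95% interval -2.51 to -0.02; edgeR adjusted p = 0.921). Control replicate 1 carried most of that difference, and without it the value was -0.50. Cyp3a41a and Cyp3a41b differ at 2 of 1515 coding bases, and only 4.60% and 10.4% of their 75-base coding stretches are unique among the members. Their coding sequences thus hardly tell them apart, and their untranslated bases were not compared. The window of bases 46 to 120 shows 1 of the 2 differing bases, in capitals at the end.
Cyp3a41a: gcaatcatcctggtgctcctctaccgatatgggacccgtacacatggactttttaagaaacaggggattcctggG
Cyp3a41b: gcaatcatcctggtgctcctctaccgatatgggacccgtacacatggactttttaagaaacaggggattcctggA

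Summed with Cyp3a11 and Cyp3a44, to which they are at least 95% identical directly or through another copy, they had 4829 ± 659 CPM on control chow, and 3385 ± 864 CPM with PS-MP (SD, n = 3), a ratio of 0.701. That sum was nearly all Cyp3a11.

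**Figure D5:**
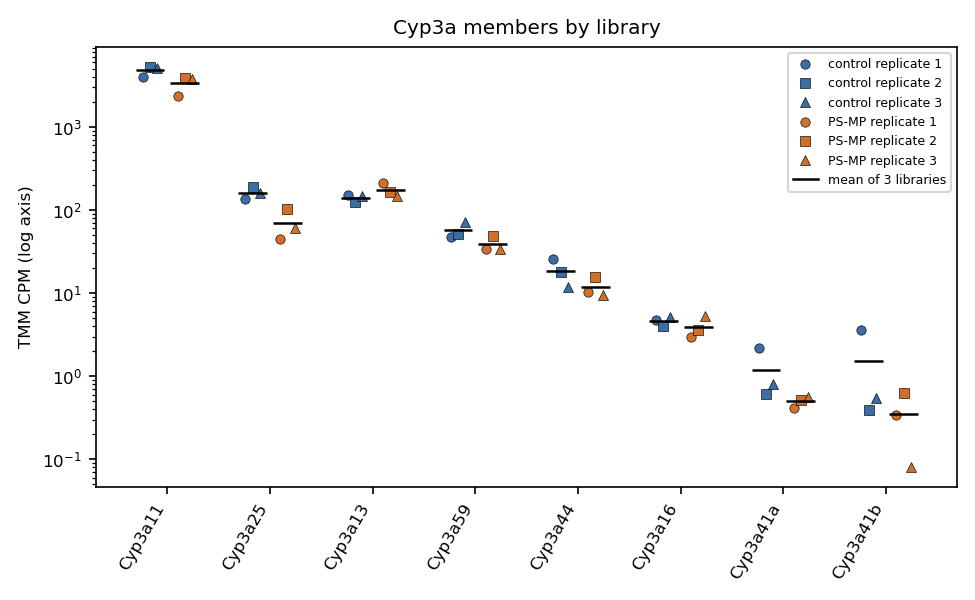
TMM CPM of the 8 tested Cyp3a members on a log axis, with 1 point per library and a bar at the mean of 3 libraries. The PS-MP points of Cyp3a11, Cyp3a25 and Cyp3a41a lie below all control points, and those of Cyp3a13 lie at or above most of them.

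Cyp2e1, which oxidises ethanol and paracetamol in the hepatocytes around the central vein, had 10158, 4687 and 7694 CPM on control chow, and 6729, 8058 and 7150 CPM with PS-MP. Both the highest and the lowest library were controls, and the 3 PS-MP libraries lay between them. Its log2 fold change was -0.04 (SE 0.29, 95% interval -0.73 to 0.66; edgeR adjusted p = 1), and it was above zero by library size alone (0.16), by limma-voom (0.03), and when control replicate 1 (0.24) or PS-MP replicate 1 (0.02) was left out. A 2-fold difference lay outside its interval. Cyp2f2, the naphthalene-oxidising enzyme of hepatocytes around the portal vein and of lung, had 769, 623 and 685 CPM on control chow, and 444, 330 and 701 CPM with PS-MP. PS-MP replicate 3 lay within the control range and the other 2 PS-MP libraries below it (log2 fold change -0.49, SE 0.28, 95% interval -1.16 to 0.18; adjusted p = 0.955).

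The Cyp2d genes summed to 3174, 2242 and 2743 CPM on control chow, and 2413, 2073 and 2936 CPM with PS-MP (log2 fold change -0.14, and 0.07 by library size alone). Cyp2d9, the male-biased testosterone hydroxylase, had 1515, 1099 and 1254 CPM on control chow, and 801, 858 and 1421 CPM with PS-MP. PS-MP replicates 1 and 2 lay below control and PS-MP replicate 3 inside it (log2 fold change -0.33, SE 0.26, 95% interval -0.95 to 0.30; edgeR adjusted p = 1). Cyp2d26 had 947, 625 and 836 CPM on control chow, and 1003, 772 and 850 CPM with PS-MP (log2 fold change 0.12), and Cyp2d10 had 550, 393 and 486 CPM on control chow, and 431, 347 and 521 CPM with PS-MP (log2 fold change -0.14, and 0.06 by library size alone). The libraries of both overlapped. Of the 9 tested Cyp2d members, 6 had an interval inside a 2-fold change.

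Cyp2j5, an epoxygenase of liver and kidney, had 368, 408 and 436 CPM on control chow, and 319, 384 and 339 CPM with PS-MP. PS-MP replicate 2 lay within the control range (log2 fold change -0.22, SE 0.14, 95% interval -0.54 to 0.10; edgeR adjusted p = 0.969). The sum of the Cyp2j members was 407, 457 and 490 CPM on control chow, and 361, 417 and 377 CPM with PS-MP (exact permutation p = 0.2).

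Cyp2u1, a fatty acid hydroxylase found in many tissues, had the smallest p of the members and very little spread within each diet. It had 33.2, 31.3 and 32.1 CPM on control chow, and 22.5, 20.4 and 22.9 CPM with PS-MP, or 32.2 ± 0.965 and 21.9 ± 1.37 CPM (SD, n = 3). The groups were apart, by library size alone too (log2 fold change -0.55, SE 0.12, 95% interval -0.83 to -0.28; edgeR adjusted p = 0.767; exact permutation p = 0.1). DESeq2 called it (log2 fold change -0.56, adjusted p = 0.0203), and limma-voom did not (adjusted p = 0.810). When single libraries were left out, the log2 fold change stayed within -0.60 and -0.50. It has no near copy among the members, and none of its 75-base coding stretches occurs in another member. Cyp2r1, a vitamin D 25-hydroxylase, had 5.86 to 10.6 CPM over all libraries (log2 fold change -0.16). Cyp2g1, best known from olfactory mucosa, had 0.826, 1.72 and 2.67 CPM on control chow, and 5.15, 4.94 and 0.537 CPM with PS-MP (log2 fold change 1.02, SE 0.82; adjusted p = 1).

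Read by known role, the members split as follows. The 5 PXR-inducible members listed are all Cyp3a genes, so their values repeat those of that subfamily. Of these 4 lay below zero, with a median log2 fold change of -0.66, that of Cyp3a44 (-0.44 by library size alone), and Cyp3a13 lay above. Of the 10 CAR-inducible members, where Cyp2c55 was listed, 7 lay below zero (median -0.15), or 5 by library size alone (median 0.06). Of the 10 female-biased members 5 did (median -0.03), and by library size alone too (median 0.18). Of the 8 members known from pericentral hepatocytes, 7 were below zero by small amounts (median -0.10), or 3 by library size alone (median 0.10), and 6 of the 8 intervals stayed inside a 2-fold change. edgeR called 0 in each of these groups, and the lists share genes.

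The genes around the P450 enzymes were read in 9 lists with 94 tested genes, of which edgeR called 0. It had 10 (10.6%) at an unadjusted p under 0.05, against 5.38% of all genes. DESeq2 called 3 of the 94, Gstm3 lower and Hmox1 and Cux2 higher, where it called 1.06% of all genes. Of the electron donors and haem enzymes 9 of 13 lay below zero (median -0.07), or 4 by library size alone (median 0.15). Por, the reductase that feeds every microsomal P450, had 93.9, 190 and 404 CPM on control chow, and 331, 89.7 and 294 CPM with PS-MP, a wide spread within both diets, and Cyb5a had 1024, 1117 and 1274 CPM on control chow, and 1007, 1269 and 966 CPM with PS-MP. Hmox1, which breaks haem down, had 12.1, 10.8 and 12.3 CPM on control chow, and 19.98, 18.1 and 17.5 CPM with PS-MP, without overlap (log2 fold change 0.66, SE 0.14; edgeR adjusted p = 0.767, DESeq2 adjusted p = 0.00877).

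Among receptors and transcription factors 7 of 18 lay below zero (median 0.18), or 3 by library size alone (median 0.40). Nr1i2, the gene of PXR, had 86.8, 60.5 and 62.7 CPM on control chow, and 49.0, 51.7 and 62.1 CPM with PS-MP, which overlap (log2 fold change -0.37, SE 0.18; edgeR adjusted p = 0.931). Nr1i3, the gene of CAR, had 230, 20.5 and 7.31 CPM on control chow, and 43.3, 236 and 58.7 CPM with PS-MP. Control replicate 1 and PS-MP replicate 2 were high and the groups overlapped. Of the other CAR and PXR targets 10 of 12 lay below zero (median -0.30), or 8 by library size alone (median -0.08). Aldh1a7, an aldehyde dehydrogenase, had 237, 190 and 235 CPM on control chow, and 161, 169 and 168 CPM with PS-MP (log2 fold change -0.41, SE 0.13; adjusted p = 0.815). Gstm3, a glutathione transferase with near copies, had 73.4, 35.7 and 69.4 CPM on control chow, and 22.4, 22.0 and 28.6 CPM with PS-MP (log2 fold change -1.29, SE 0.29; adjusted p = 0.767). Neither overlapped.

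Sex-biased and zonated genes outside families 1 to 3 were read beside the members they resemble. The lists hold some P450 genes of other families: Cyp4a12a and Cyp7b1 (male-biased), Cyp17a1 (female-biased) and Cyp7a1 (pericentral). Of the male-biased genes 8 of 9 lay below zero (median -0.73), and of the female-biased genes 2 of 7 did (median 0.96). By library size alone these were 8 of 9 (median -0.53) and 1 of 7 (median 1.17). Cux2, a female-biased transcription factor, had 0.193, 0.214 and 0.293 CPM on control chow, and 6.56, 4.87 and 0.385 CPM with PS-MP, high in PS-MP replicates 1 and 2 (log2 fold change 4.06, SE 0.98; edgeR adjusted p = 0.767, DESeq2 adjusted p = 0.000739). The same 2 libraries were the lowest for the male-biased Cyp2d9. Among the 10 female-biased members they were the highest for 2 (Cyp2c40 and Cyp2g1), the lowest for 2 (Cyp3a16 and Cyp3a41a) and neither for 6. Pericentral genes lay below zero in 8 of 9 (median -0.26), or 7 by library size alone (median -0.06), Glul among them with 947, 655 and 1076 CPM on control chow, and 560, 600 and 622 CPM with PS-MP (log2 fold change -0.59; adjusted p = 0.869). Periportal genes lay below zero in 2 of 9 (median 0.23), or 1 by library size alone (median 0.43), whereas the periportal member Cyp2f2 was at -0.49. These lists were not compared with the members by a test.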

How the data were processed

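RNA of 6 liver libraries, 3 per diet, was sequenced after poly(A) selection with directional library kits, per the labels' protocols. The deposited files hold whole-number read counts per gene symbol, not normalized. Per the submitters' processing notes the tool was bcl2fastq and the build GRCm39; aligner, counter, annotation and strand setting were not given in the sources used here, so reads of overlapping or antisense genes cannot be told apart, and near-identical copies may share reads. Each file lists 56674 rows under 55802 symbols; 67 symbols listed more than once (0 members) were summed.

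Counts were analysed in R 4.3.3. edgeR 4.0.16 filtered genes (filterByExpr by diet, 17662 left), scaled them by TMM and tested diet with the quasi-likelihood F test, with Benjamini-Hochberg adjustment across every gene at a threshold of 0.05. Intervals at 95% come from the SE and 6.63 moderated degrees of freedom. Subfamily sums entered the same fit as rows in place of their members. Summed CPM was compared by two-sided exact permutation over 10 splits (smallest p 0.1). Alternatives were DESeq2 1.42.0, limma-voom (limma 3.58.1), 2 other scalings, 2 other filters, a replicate block and each library left out in turn. The scripts were tested on simulated data.

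Sequence identity (GENCODE M21, 60 of 61 members matched, Cyp2d13 not) and promoters (RefSeq, 52 members matched) come from GRCm38, an earlier build, by symbol. Copies were grouped at 95% identity of coding sequence, since no protein table was used here; this grouping, and overlap by library size alone, were chosen after the data were seen.

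Members named were those with a mean of at least 100 CPM in either diet, the 5 of lowest p on either side of zero, and 17 set whatever their values; others were chosen after their values were seen. Members and gene lists were chosen with earlier results of these data known.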

Additional observations from a re-analysis of the deposited data

How the results depend on the processing

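edgeR called 0 members and 0 genes of the other lists under each scaling and filter, with the replicate block and with each library left out, and limma-voom called 0. DESeq2 called 2 members, 3 genes of the other lists and the Cyp2u sum (-0.56, adjusted p = 0.0202). Pairs of libraries with the same number correlated at 0.108, 0.139 and -0.128 in their deviations from the diet means, so the numbers were not taken to pair samples, and not every library correlated best with its own number. With the replicate block 0 of all genes were called, against 2 without it, and log2 fold changes turned to -0.023 for the Cyp2a sum, 0.024 for the Cyp2e row and 0.025 for Cyp2e1. Limma-voom turned the Cyp2a sum to -0.032 and Cyp2e and Cyp2e1 to 0.027, and the 1 CPM filter turned Cyp2c54 to 0.0020.

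Library size alone turned the sum of all members to 0.029, and subfamily sums to 0.044 (Cyp1a), 0.029 (Cyp2c), 0.067 (Cyp2d), 0.16 (Cyp2e) and 0.059 (Cyp2r). Genes turned to 0.045 (Cyp1a2), 0.17 (Cyp2c37), 0.20 (Cyp2c54), 0.065 (Cyp2d10), 0.16 (Cyp2e1), 0.14 (Cyb5a), 0.18 (Hnf4a), 0.096 (Nqo1) and 0.082 (Tiparp), and summed copies to 0.038 (Cyp2c37, Cyp2c50 and Cyp2c54) and 0.14 (Cyp2c67, Cyp2c68 and Cyp2c69). These 17 values moved up by 0.20 to 0.23, the size of the shift that this scaling gives the median of all genes (0.21). The causes of the turns under the replicate block, limma-voom and the filter were not tested.

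With a library left out, log2 fold changes crossed zero for these sums: Cyp1b (-0.29 to 0.84), Cyp2a (-0.44 to 0.39), Cyp2b (-0.13 to 1.18), Cyp2e (-0.29 to 0.24), Cyp2r (-0.43 to 0.0099), Cyp2s (-0.056 to 1.24) and Cyp2a4 with Cyp2a5 (-0.49 to 0.61). They did so for the members Cyp1b1 (-0.29 to 0.84), Cyp2a4 (-0.29 to 0.53), Cyp2a5 (-0.50 to 0.62), Cyp2b13 (-1.35 to 0.52), Cyp2b9 (-0.046 to 1.35), Cyp2c37 (-0.15 to 0.14), Cyp2c54 (-0.14 to 0.17), Cyp2d10 (-0.31 to 0.0019), Cyp2d26 (-0.030 to 0.26) and Cyp2e1 (-0.29 to 0.24). Other genes that crossed were Ahr (-0.23 to 0.34), Alas1 (-0.26 to 0.74), Cyb5a (-0.21 to 0.016), Hnf4a (-0.14 to 0.076), Nqo1 (-0.32 to 0.28), Nr1i3 (-0.74 to 3.02), Por (-0.32 to 0.75) and Tiparp (-0.38 to 0.11).

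Of 52 named genes, 33 kept their direction in every alternative run, as did 6 of 15 subfamily sums and 3 of 6 groups of copies. With 3 libraries a diet the exact test cannot go below 0.1, and members under about 1 CPM rest on few counts.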

Other observations

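Among 12 Cyp pseudogenes of families 1 to 3 with a count (of 25 listed), Cyp2a21-ps was the most abundant, with 34.7, 19.0 and 64.9 CPM on control chow, and 30.4, 48.8 and 18.3 CPM with PS-MP. Its 2 highest libraries were those of Cyp2a5. Cyp2d37-ps followed with 4.10, 4.66 and 1.99 CPM on control chow, and 4.39, 6.16 and 8.90 CPM with PS-MP. Reads of a pseudogene can belong to its parent gene.

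P450 genes of the other families, which make and break steroids, bile acids, retinoids and fatty acids, numbered 39, of which 26 were tested. Some of these genes, Cyp4a12a among them, are also in the sex-biased and pericentral lists. edgeR called 0 of the 26 and had 3 (11.5%) at an unadjusted p under 0.05, against 11.8% of the members and 5.38% of all genes. Below zero were 17 of 26 (65.4%), against 66.7% of the members and 47.2% of all genes. Their median log2 fold change was -0.05, against -0.22 for the members. By library size alone 11 were below zero (median 0.16). The male-biased fatty acid hydroxylase gene Cyp4a12a had 457, 334 and 484 CPM on control chow, and 149, 204 and 289 CPM with PS-MP, without overlap (log2 fold change -0.99, SE 0.27; edgeR adjusted p = 0.805). By library size alone its log2 fold change was -0.78 and the groups overlapped. Its copy Cyp4a12b stood at -0.71 on the log2 scale with TMM (SE 0.16; adjusted p = 0.767). Cyp26b1, a retinoic acid hydroxylase, had 0.90 (SE 0.34; adjusted p = 0.904).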
